A study of Mus musculus with 6 samples.

Results

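The genes of respiratory complex I were examined in MIN6 cells, a mouse insulinoma line used as a model of the islet beta cell, after chronic exposure to epinephrine. Members were the genes of the deposited table whose symbol begins with Nduf or mt-Nd, which gave 54 of 22298 genes. They comprised 39 nuclear genes for subunits, 8 genes for assembly factors (Ndufaf) and 7 subunits encoded by the mitochondrial DNA. The table holds 6 samples of RNA-seq, 3 labelled control and 3 labelled chronic epinephrine, all labelled as MIN6 cells. The labels name no genetic change, and no labelled treatment other than epinephrine separates the groups. In the study the cells were kept with epinephrine for several days and then without it for a shorter time, but the day on which RNA was collected is not stated. The study calls its replicates biological, but the labels do not say that the samples of a group came from separate cultures, so p-values measure the spread between these samples.

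Complex I (NADH:ubiquinone oxidoreductase) takes electrons from NADH, passes them along a chain of iron-sulfur clusters to ubiquinone and pumps protons out of the mitochondrial matrix. It is L-shaped, with a hydrophilic arm that holds the NADH-binding and quinone-binding modules and a membrane arm built around the mitochondrially encoded subunits, and many accessory subunits and dedicated assembly factors are needed to put it together. In the beta cell, oxidation of glucose-derived NADH by the respiratory chain raises ATP, which closes the potassium channels that hold back insulin secretion.

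Total expected counts per sample were between 15017065 and 18127171, and each of the 53 members tested had a mean count of at least 149.8. The 10 beta-cell markers were all present in every sample, and 2 of them were called between the groups with all samples, against 2.63% of all genes. Their summed level was 44495 to 62467 CPM (counts relative to each library's total, to which the CPM of single genes add a normalization by the trimmed mean of M values). Most of this sum came from Ins2 and Iapp, so it does not show whether single markers differed. The library of control 1 stood apart, with correlations of 0.974 to 0.979 to the other libraries across genes, against 0.985 or more among the other 5. Controls 2 and 3 held hepatocyte transcripts. All 15 hepatocyte markers reached 3 counts there, with a summed level of 79.1 and 210 CPM, against 4 to 6 markers and 2.06 to 3.28 CPM in the other 4 samples, where Fga, Fgg, Serpina3k and Mup3 were at 0. Epinephrine samples 1 and 2 held transcripts of striated muscle, with 5 of 5 markers and 98.3 and 78.2 CPM, against 2 of 5 markers and 2.80 to 6.95 CPM in the others, where Ckm was at 0. Of the muscle markers, 2 were tested between the groups and 1 was called. The muscle marker Cox6a2 is also a gene of respiratory complex IV. It had 31, 57 and 56 counts in the controls and 101, 128 and 92 after epinephrine, so it was not low in epinephrine sample 3. The summed alpha-cell markers were at 1043, 1257 and 1539 CPM in the controls and at 1989, 1925 and 2136 CPM after epinephrine, so the groups did not overlap, and 1 of the 3 tested was called. Most of these sums came from Gcg and Ttr. Fibroblast markers were at 22.5, 1.43 and 7.85 CPM in the controls and at 18.4, 11.8 and 0.787 CPM after epinephrine, highest in control 1, and markers of delta, PP, exocrine and leukocyte cells were at 0 to 10.6 CPM. The part of any of these in the results was not tested. The comparisons were therefore made with all 6 samples and without control 1, a sample chosen for leaving out with its position already known.

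With all 6 samples, no member of complex I passed the test. Most members were a little higher after epinephrine than in the control group, and nearly all of them were low in 1 of the 3 control libraries. The median over the nuclear subunits was a log2 fold change of 0.17, that of the assembly factors 0.03 and that of the mitochondrially encoded subunits 0.09, against -0.0023 over all genes tested. Without control 1 the same medians were 0.02, -0.10 and -0.12.

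Most members were low in control 1. In bulk RNA, less transcript per cell and fewer cells that hold it cannot be told apart. On a log2 scale relative to the mean of the 3 controls, the median of the 53 members was -0.41 in control 1, 0.16 in control 2, 0.25 in control 3, and 0.15, 0.22 and 0.14 in the 3 epinephrine samples. The epinephrine samples thus lay between or beside controls 2 and 3, and control 1 lay alone below them. Control 1 held the lowest of the 6 values for 49 of the 53 members, comprising 35 of 38 nuclear subunits, 7 of 8 assembly factors and 7 of 7 mitochondrially encoded subunits, whereas it held the lowest value for 34.8% of all genes tested. The members together made up less of that library as well, since the mitochondrially encoded subunits took 1.59% of all counts in control 1 and 2.03 to 2.55% in the other 5 samples, and the nuclear subunits took 0.161% against 0.215 to 0.227%.

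**Figure D1:**
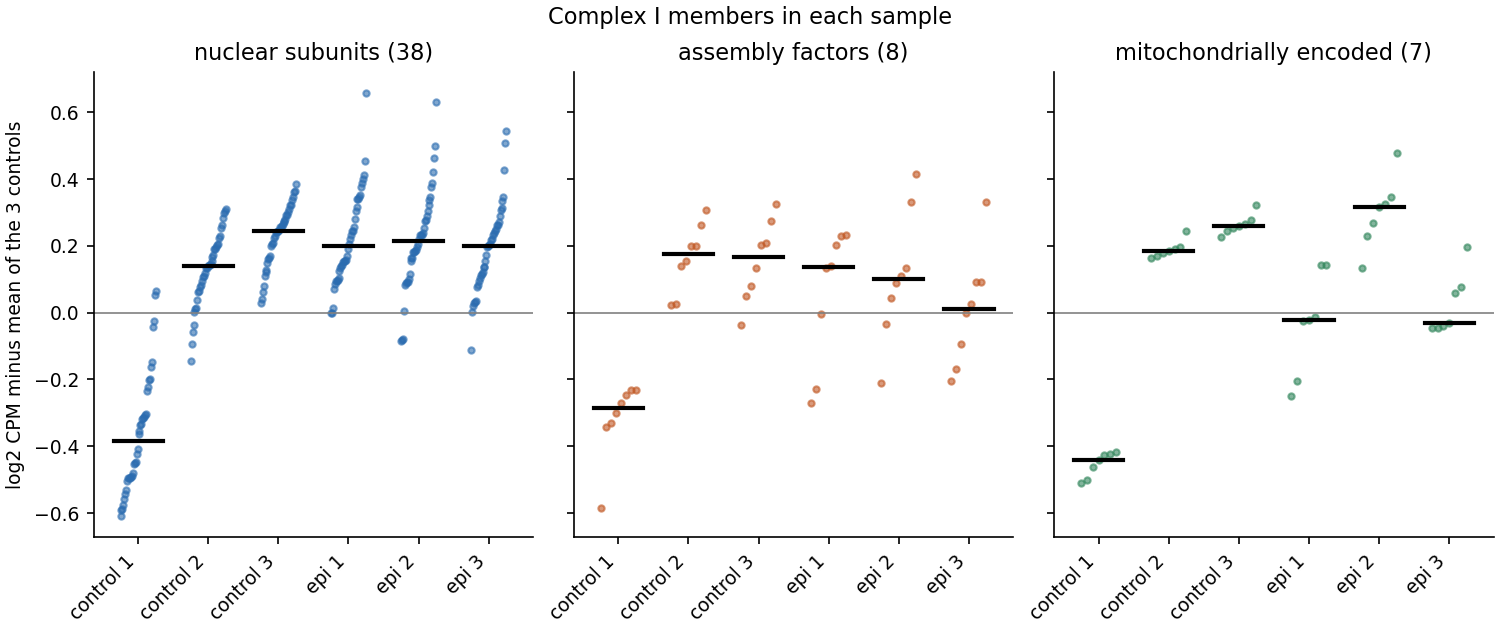
Level of each complex I member in each sample, as log2 CPM minus the mean of the 3 controls (vertical axis), in 3 panels for nuclear subunits, assembly factors and mitochondrially encoded subunits; each point is a gene, sorted within its sample, and the bar is the median. Control 1 is the low sample in each panel, with medians of -0.38, -0.28 and -0.44.

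The low level in control 1 went with transcript length. Over all genes tested, the median difference of control 1 from the control mean was -0.51 for transcripts of up to 500 nucleotides, -0.40 from 500 to 750, -0.31 from 750 to 1000, -0.17 from 1000 to 1500, and 0.18 for transcripts of over 5000 nucleotides. Transcripts of complex I are short, with a median length of 713 nucleotides for the nuclear subunits, 1267 for the assembly factors and 957 for the mitochondrially encoded subunits. Set against genes of their own length class, 24 of 38 nuclear subunits, 7 of 8 assembly factors and 6 of 7 mitochondrially encoded subunits were below the class median in control 1, by a median difference of -0.06, -0.12 and -0.12. When transcript length was entered as an offset in the fit of all 6 samples, the median log2 fold change fell to 0.03 for the nuclear subunits and turned to -0.07 for the assembly factors and -0.11 for the mitochondrially encoded subunits. What made short transcripts low in this library was not tested.

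**Figure D2:**
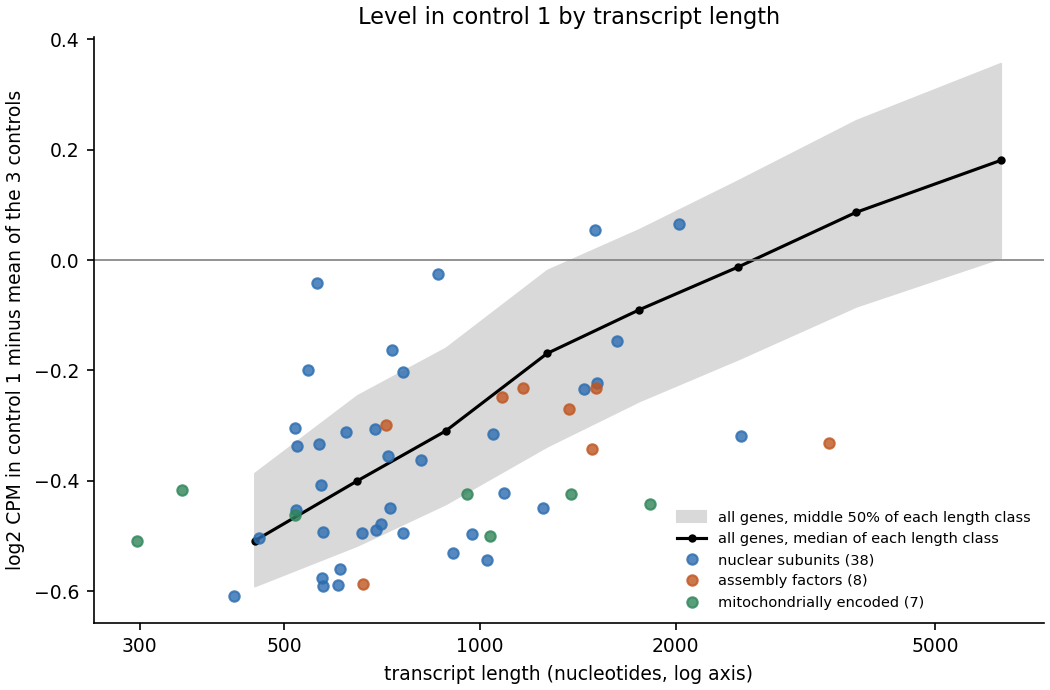
Level in control 1, as log2 CPM minus the mean of the 3 controls (vertical axis), against transcript length in nucleotides (log axis); points are the 53 members by class, the line joins the medians of all genes in 8 length classes, each drawn at its median length, and the grey band holds the middle 50% of each class. Most members lie where transcripts are short and the line is low.

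The fit of all 6 samples called 0 of the 53 members at an adjusted p under 0.05 (edgeR quasi-likelihood test, Benjamini-Hochberg over all genes tested), where 2.63% of all genes were called. DESeq2 also called 0. At an unadjusted p under 0.05 there were 2 members, Ndufa4 among them, against 17.1% of all genes. The direction was shared more widely than the calls, with 47 members higher and 6 lower after epinephrine, while 49.5% of all genes had a log2 fold change above 0. In 9 members the 3 epinephrine samples did not overlap the 3 controls, and all 9 were higher. Among them were Ndufa2, Ndufa4, Ndufa10, Ndufb9, Ndufc2, Ndufs4, Ndufv3 and Ndufaf4. Over all genes 27.3% did not overlap, so the share among the members was below that of all genes. For such a gene the exact two-sided permutation test gives p = 0.1, the smallest that 3 samples against 3 allow.

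The size of a change that these samples could hide was limited. The 95% interval of the fold change held 0 on the log2 scale for 51 of 53 members, and it excluded a 2-fold change in either direction for 52 of 53 and a 1.5-fold change for 36. The exception to the first was Ndufa4, with an upper bound of 1.02 on the log2 scale. Without control 1 the median standard error of the members dropped from 0.161 to 0.0703, and all 53 intervals excluded a 1.5-fold change. Control 1 was left out with its low position already known, and 2 controls remain. These narrower intervals are therefore no separate evidence that a change is small.

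Without control 1, 6 members passed the test, 3 in each direction. Among those higher after epinephrine were Ndufa4 and Ndufc2, and lower were Ndufs1, mt-Nd5 and mt-Nd6. These 6 are 11.3% of the members, against 21.6% of all genes called in the same fit (12.1% higher and 9.46% lower), so the members were called less often than genes at large, as a count and not as a test. Direction was no longer shared. Of the members, 29 were higher and 24 lower, and 18 members changed from higher with all 6 samples to lower without control 1, whereas none changed the other way. With control 1 out, 2 controls remain, both of them the libraries with hepatocyte transcripts, and the part of these transcripts in the result was not tested.

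**Figure D3:**
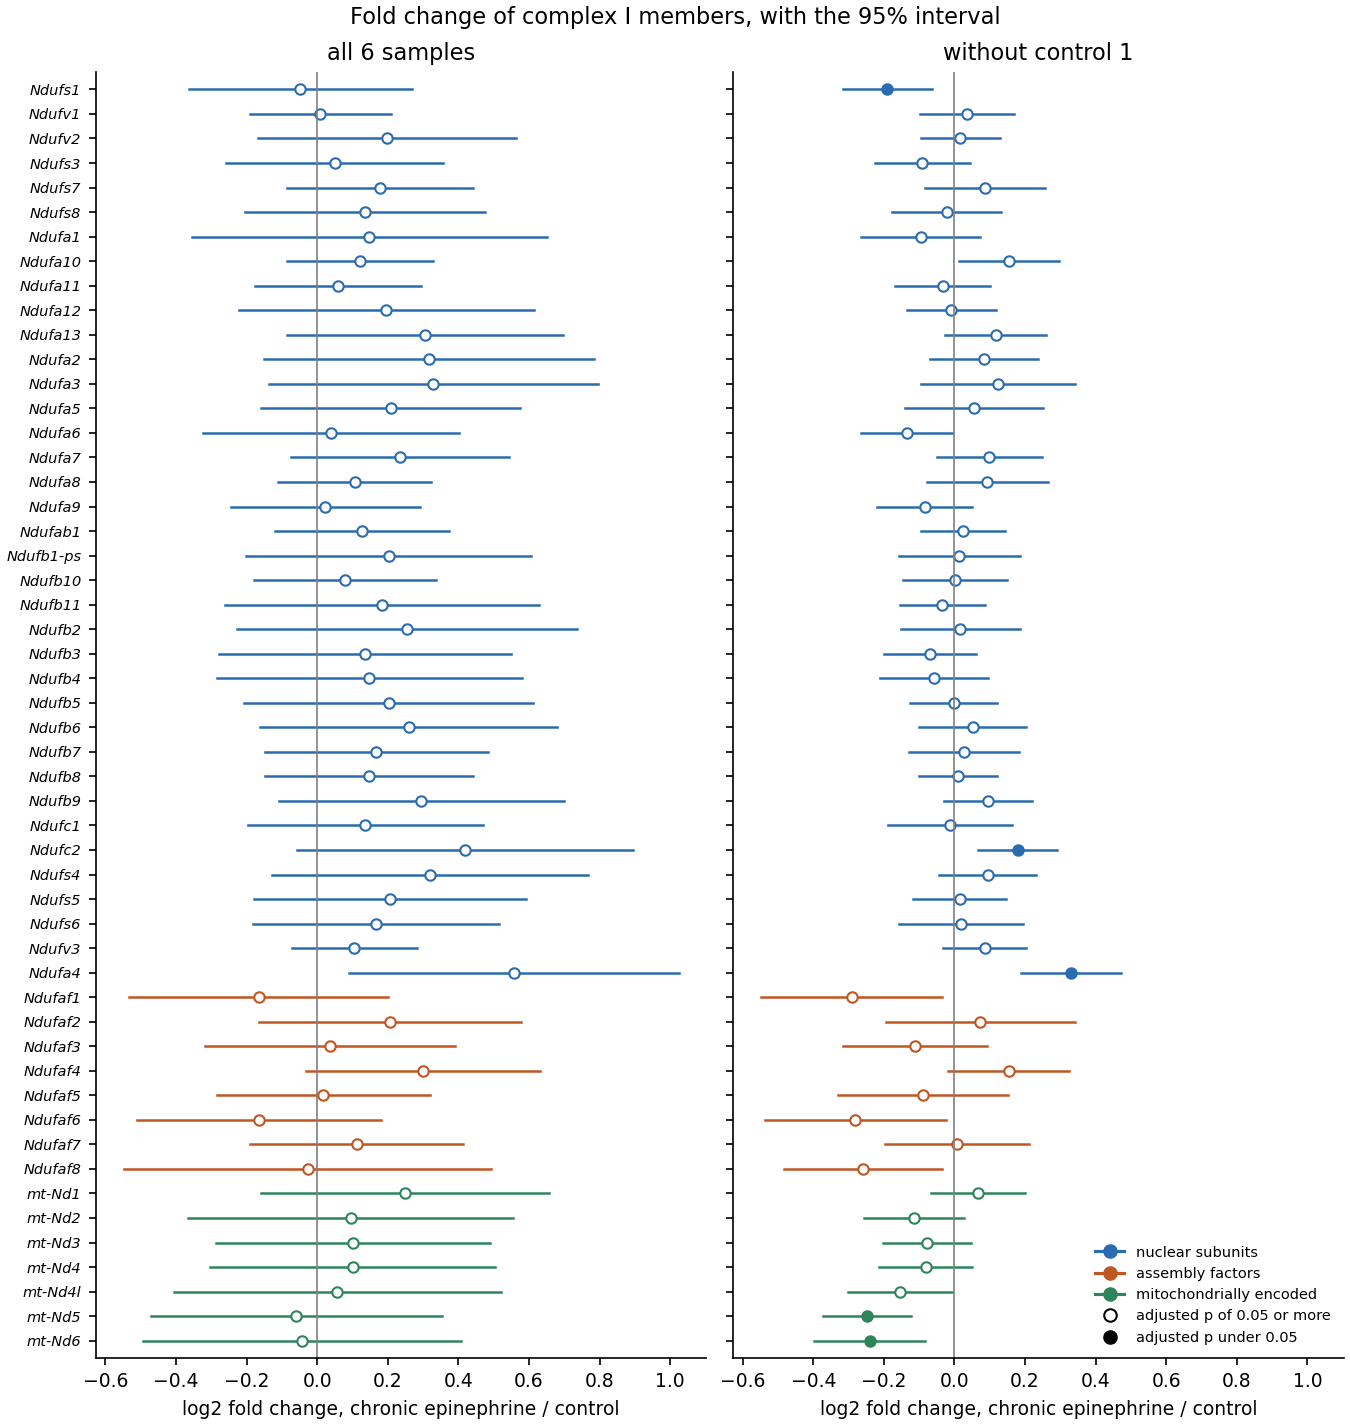
Log2 fold change of 52 of the 53 members, chronic epinephrine over control, with its 95% interval (edgeR), from all 6 samples (left) and without control 1 (right); filled points have an adjusted p under 0.05. With all 6 samples no point is filled and 51 intervals cross 0, and without control 1 the intervals are narrower, the points centre near 0 and 5 are filled.

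The core subunits of the hydrophilic arm fall into the quinone-binding and the NADH-binding modules. In the quinone-binding module, Ndufs7, Ndufs8 and Ndufs3 did not pass the test in either fit. Ndufs7, which carries the last iron-sulfur cluster before ubiquinone, was at 23.0, 26.6 and 30.5 CPM in the controls and at 29.1, 30.9 and 30.6 CPM after epinephrine, with log2 fold changes of 0.18 with all samples and 0.09 without control 1. Ndufs8, an iron-sulfur protein that hands electrons on to it, was at 25.2, 35.3 and 38.5 CPM in the controls and at 37.5, 37.0 and 34.2 CPM after epinephrine. Ndufs3, another conserved core subunit of this module, was at 41.9, 56.4 and 60.3 CPM in the controls and at 58.2, 52.4 and 53.5 CPM after epinephrine. Both Ndufs8 and Ndufs3 were lowest in control 1, and both turned from higher (0.13 and 0.05) to lower (-0.02 and -0.09) when it was left out.

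In the NADH-binding module, Ndufs1 was the subunit with a call. It is the largest core subunit of the arm and carries several iron-sulfur clusters, and it lies on the minus strand at chr1:63143596-63176833, overlapping exons of Eef1b2 and Ino80dos on the opposite strand. Ndufs1 was at 78.6, 112 and 107 CPM in the controls and at 105, 92.5 and 90.6 CPM after epinephrine. Epinephrine samples 1 to 3 all lay below controls 2 and 3 and above control 1. The log2 fold change was -0.05 ± 0.14 with all samples and -0.19 ± 0.061 without control 1, with an adjusted p of 0.0260 that did not pass under DESeq2 or under limma on FPKM values. It was also lost when control 2, epinephrine sample 2 or epinephrine sample 3 was left out besides control 1 (adjusted p = 0.180, 0.0782 and 0.133).

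Ndufv1 and Ndufv2 gave no call. Ndufv1, where NADH and the flavin bind and electrons enter the complex, was at 67.7, 61.1 and 67.0 CPM in the controls and at 69.3, 61.6 and 66.2 CPM after epinephrine, so the groups spanned the same range and control 1 was not low. Its log2 fold change was 0.01 with all samples and 0.04 without control 1. Ndufv2, which pairs with Ndufv1 and also binds an iron-sulfur cluster, was at 78.1, 117 and 125 CPM in the controls and at 124, 120 and 124 CPM after epinephrine, and its log2 fold change dropped from 0.20 to 0.02 without control 1.

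The 30 accessory nuclear subunits other than Ndufa4 and Ndufa4l2 were all higher with all 6 samples, by 0.02 to 0.42 on the log2 scale with a median of 0.18, and none passed the test. Without control 1, 20 were higher and 10 lower, and the median was 0.02. The Ndufa group (Ndufa1, Ndufa2, Ndufa3, Ndufa5, Ndufa6, Ndufa7, Ndufa8, Ndufa9, Ndufa10, Ndufa11, Ndufa12, Ndufa13 and Ndufab1) had medians of 0.15 and 0.05 in the fits with and without control 1. The Ndufb group of the membrane arm (Ndufb1-ps, Ndufb2, Ndufb3, Ndufb4, Ndufb5, Ndufb6, Ndufb7, Ndufb8, Ndufb9, Ndufb10 and Ndufb11) had medians of 0.18 and 0.01, and each of its 11 members was lowest in control 1. The Ndufs and Ndufv accessory subunits (Ndufs4, Ndufs5, Ndufs6 and Ndufv3) had medians of 0.19 and 0.05, and Ndufc1 and Ndufc2 had log2 fold changes of 0.14 and 0.42 with all samples and -0.01 and 0.18 without control 1. Ndufb1-ps is annotated as a bidirectional promoter lncRNA, so its count may not stand for the subunit.

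Ndufc2, a small accessory subunit of the membrane arm on the plus strand at chr7:97400003-97407802, was the accessory subunit with a call. It was at 52.2, 97.6 and 95.4 CPM in the controls and at 108, 108 and 112 CPM after epinephrine. All epinephrine samples lay above all controls, by a small margin over controls 2 and 3 and by a wide one over control 1. The log2 fold change was 0.42 ± 0.21 with all samples (adjusted p = 0.352) and 0.18 ± 0.055 without control 1 (adjusted p = 0.0189), where DESeq2 and the fits of FPKM values did not call it. With a further sample out that call was lost without control 2, control 3 or epinephrine sample 3 (adjusted p = 0.0548, 0.0874 and 0.0842).

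At the extremes of the nuclear subunits, Ndufa3 and Ndufa9 were lowest in control 1. Ndufa3, a small membrane-bound subunit and the third highest by log2 fold change (0.33), was at 9.39, 14.7 and 17.2 CPM in the controls and at 17.7, 18.9 and 15.3 CPM after epinephrine, and its adjusted p was 0.454. Without control 1 its value was 0.12. Ndufa9, which sits near the quinone site, was among the 3 lowest with 0.02, at 51.9, 64.7 and 67.7 CPM in the controls and at 67.2, 57.8 and 62.3 CPM after epinephrine, and it turned to -0.08 without control 1. Ndufs4, whose loss in mice gives a model of Leigh syndrome, was at 24.8, 44.7 and 42.8 CPM in the controls and at 45.8, 45.7 and 48.7 CPM after epinephrine. Its groups did not overlap, and the adjusted p was 0.451 with all samples and 0.345 without control 1.

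Ndufa4 had the largest log2 fold change of the 53 members in both fits. It carries a complex I name but is now assigned to cytochrome c oxidase (complex IV), and it lies on the minus strand at chr6:11900292-11907497. It was at 27.1, 45.03 and 52.2 CPM in the controls and at 63.0, 61.8 and 58.2 CPM after epinephrine. The 3 epinephrine samples were close to each other and all above the highest control. The part of the muscle transcripts of epinephrine samples 1 and 2 was not tested. The log2 fold change was 0.56 ± 0.20 with all samples (adjusted p = 0.209) and 0.33 ± 0.069 without control 1 (adjusted p = 0.000789). DESeq2 and limma kept that call, and it was lost (adjusted p = 0.0607) when control 2 was left out besides control 1. Its paralog Ndufa4l2, a gene induced by hypoxia, had 2, 4 and 0 counts in the controls and 5, 1 and 8 counts after epinephrine, too few to be tested.

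**Figure D4:**
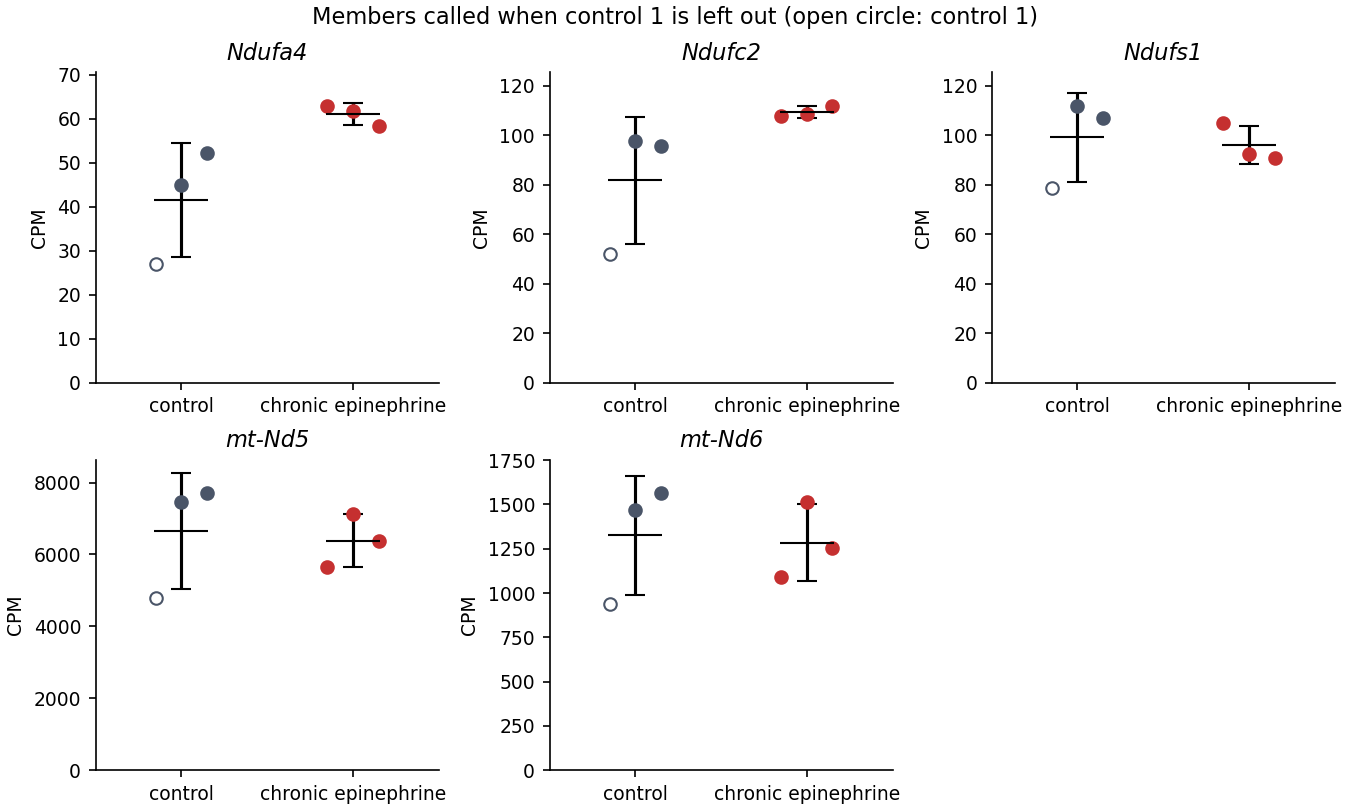
Level in CPM (vertical axis, from 0) of 5 of the 6 members that passed the test without control 1, for controls and epinephrine samples; points are samples 1 to 3 from left to right, the open circle is control 1, and the bar and whiskers are the mean and SD of 3 samples. In Ndufa4 and Ndufc2 all epinephrine samples lie above all controls, and in Ndufs1, mt-Nd5 and mt-Nd6 they fall between control 1 and the other controls, apart from 1 overlap in mt-Nd6.

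The sequences upstream of the nuclear genes were searched for 5 motifs. The level in control 1 was not compared between members with and without a motif. The RefSeq promoter table (GRCm38.p6) held 40 of the 47 nuclear-encoded members, and those without an entry included Ndufa2, Ndufa4l2, Ndufaf6, Ndufb1-ps, Ndufb9 and Ndufs1. The 250 bases before the start site were searched on both strands. The core motif of NRF1 (CGCANGCG), a regulator of nuclear genes for mitochondrial proteins, was found in 11 of 40 members (27.5%) and in 7.65% of 27025 genes. The motif of the ETS factor GABP (CCGGAAG) was found in 5 members (12.5%) against 7.83% of genes, and the cAMP response element (TGACGTCA) in 3 members (7.5%) against 1.77%. The motifs of YY1 (AAGATGGCG) and of the estrogen-related receptors (TCAAGGTCA) were in none of the 40 windows and in 0.710% and 0.422% of all genes. The GABP and YY1 motifs can overlap, since one ends and the other begins with AAG, and the NRF1 motif and the cAMP response element can be read on both strands at one place. A match describes letters in the window only. For the 11 members with the NRF1 motif (Ndufa5, Ndufa7, Ndufa8, Ndufa11, Ndufa12, Ndufb4, Ndufb10, Ndufs5, Ndufs6, Ndufaf2 and Ndufaf4) the median fold change on the log2 scale was 0.20 with all samples and 0.02 without control 1, against 0.14 and 0.01 for the 29 without it. For the 5 members with the GABP motif these medians were 0.05 and -0.09, against 0.15 and 0.02 for the 35 without it. For the 3 with the cAMP response element they were 0.12 and 0.02, against 0.15 and 0.01 for the 37 without it. These differences were not tested.

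Motif-bearing windows are given for 3 members, with the motif in capitals, together with the 100 bases upstream of the annotated genes Ndufa4 and Ndufc2, which had calls without control 1 and hold none of the 5 motifs. Windows that overlapped an annotated exon were left out. All are written 5′ to 3′ on the strand of the gene. The Ndufaf4 window (NRF1 motif) is chr4:24897946-24898003 on the plus strand, the Ndufs5 window (NRF1 motif) is chr4:123718251-123718308 on the minus strand, and the Ndufb2 window (cAMP response element) is chr6:39592526-39592564 on the plus strand. The Ndufa4 window is chr6:11907498-11907597 on the minus strand, and the Ndufc2 window is chr7:97399903-97400002 on the plus strand.
Ndufaf4: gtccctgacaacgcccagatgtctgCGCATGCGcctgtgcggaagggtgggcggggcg
Ndufs5: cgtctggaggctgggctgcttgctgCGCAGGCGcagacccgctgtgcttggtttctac
Ndufb2: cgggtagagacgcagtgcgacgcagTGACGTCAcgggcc
Ndufa4: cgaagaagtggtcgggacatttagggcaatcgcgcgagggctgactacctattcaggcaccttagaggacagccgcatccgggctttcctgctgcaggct
Ndufc2: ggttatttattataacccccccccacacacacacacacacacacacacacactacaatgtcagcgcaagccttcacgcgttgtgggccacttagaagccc

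The 3 members shown with a motif gave no call in either fit. Ndufs5 was at 29.6, 46.5 and 48.5 CPM in the controls and at 48.5, 47.7 and 47.7 CPM after epinephrine. Ndufb2 was at 14.6, 27.1 and 27.0 CPM in the controls and at 28.9, 26.7 and 26.5 CPM after epinephrine. In both genes control 1 was alone below 5 samples of nearly one level.

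The assembly factors, which act on intermediates and are not part of the finished enzyme, were expressed at lower levels than the subunits and split in direction. Their mean FPKM (a level per length of transcript and per sequencing depth) was 7.57 to 20.2 with a median of 10.2, against 27.1 to 184 with a median of 54.7 for the 38 nuclear subunits tested, so these ranges did not overlap (Ndufa4l2, not tested, had a mean FPKM of 0.222). With all 6 samples 5 of 8 were higher and 3 lower, none passed the test, and without control 1 3 were higher and 5 lower.

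Ndufaf4, which binds the quinone-module intermediate, was the highest of the 8 by log2 fold change. It was at 19.5, 28.2 and 26.9 CPM in the controls and at 28.2, 32.8 and 30.9 CPM after epinephrine, and the groups did not overlap. Its log2 fold change was 0.30 ± 0.14 with all samples (adjusted p = 0.340) and 0.15 ± 0.083 without control 1 (adjusted p = 0.205). Its binding partner Ndufaf3 was at 12.6, 17.7 and 18.5 CPM in the controls and at 17.7, 17.3 and 15.01 CPM after epinephrine, with log2 fold changes of 0.04 and -0.11 in the same fits. These partners on the quinone module therefore had values of opposite sign without control 1, neither of them past the test.

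Ndufaf2, a paralog of Ndufa12 that acts late in assembly, was at 6.73, 8.46 and 10.1 CPM in the controls and at 9.79, 10.5 and 8.86 CPM after epinephrine, and 64.1% of its 50-base windows are shared with other transcripts, among them an antisense RNA. Ndufaf7, an arginine methyltransferase, was at 13.7, 16.4 and 18.6 CPM in the controls and at 18.9, 16.6 and 17.2 CPM after epinephrine. Their log2 fold changes were 0.21 and 0.11 with all samples and 0.07 and 0.01 without control 1. In both the epinephrine samples lay within or next to the range of controls 2 and 3.

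Ndufaf1, Ndufaf6 and Ndufaf8 were lower in both fits without passing the test, though without control 1 Ndufaf1 passed when control 3 was also left out and Ndufaf8 passed with the replicate block. Ndufaf1, of the complex that builds the membrane arm, was at 8.93, 13.4 and 10.5 CPM in the controls and at 9.19, 10.5 and 9.59 CPM after epinephrine. Ndufaf6, which acts early in assembly, was at 8.74, 11.9 and 10.8 CPM in the controls and at 8.60, 8.97 and 10.6 CPM after epinephrine. Ndufaf8, the partner of Ndufaf5, was at 8.80, 15.9 and 16.6 CPM in the controls and at 14.6, 14.6 and 11.5 CPM after epinephrine. The epinephrine samples lay between control 1 and the highest control, apart from epinephrine sample 1 of Ndufaf6, which was just below control 1. Log2 fold changes were -0.17, -0.16 and -0.03 with all samples and -0.29, -0.28 and -0.26 without control 1, with adjusted p-values of 0.0992, 0.112 and 0.0921 in the second fit. Ndufaf5, which hydroxylates Ndufs7, was at 8.54, 11.2 and 10.6 CPM in the controls and at 10.02, 10.7 and 10.05 CPM after epinephrine, with log2 fold changes of 0.02 and -0.09.

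The 7 mitochondrially encoded subunits were the most abundant members, with a mean FPKM of 925 (mt-Nd4l) to 5338 (mt-Nd1). Their genes are transcribed as long precursors from the mitochondrial DNA, so they are not independent of each other. With all 6 samples none passed the test, 5 were higher and 2 lower, and all 7 were lowest in control 1. Without control 1, 1 was higher and 6 were lower, and mt-Nd5 and mt-Nd6 passed the test, 2 of 7 against 21.6% of all genes. Epinephrine sample 2 was the highest of its group for each of the 7. When it was left out besides control 1, mt-Nd2, mt-Nd3, mt-Nd4, mt-Nd4l, mt-Nd5 and mt-Nd6 passed the test, all lower, and the median of the 7 was -0.23. In that fit 2697 of all 12831 genes tested were called.

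The proton-pumping subunits mt-Nd2, mt-Nd4 and mt-Nd5 resemble antiporters and form most of the membrane arm. mt-Nd5, on the plus strand at chrM:11742-13565, was at 4794, 7451 and 7715 CPM in the controls and at 5645, 7139 and 6374 CPM after epinephrine. All epinephrine samples lay below controls 2 and 3 and above control 1. Its log2 fold change was -0.06 ± 0.18 with all samples and -0.25 ± 0.061 without control 1 (adjusted p = 0.00381), a call that DESeq2 and the fits of FPKM values did not make. mt-Nd2 was at 2146, 3435 and 3791 CPM in the controls and at 2988, 3858 and 3161 CPM after epinephrine, and mt-Nd4 was at 3608, 5440 and 5771 CPM in the controls and at 4759, 6023 and 5107 CPM after epinephrine. In both the epinephrine samples overlapped controls 2 and 3, and their log2 fold changes were 0.09 and 0.10 with all samples and -0.12 and -0.08 without control 1.

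mt-Nd6 is the subunit encoded on the other strand, at chrM:13552-14070, where its end overlaps that of mt-Nd5. It was at 938, 1470 and 1566 CPM in the controls and at 1088, 1514 and 1253 CPM after epinephrine. Epinephrine sample 2 lay between controls 2 and 3, and the other epinephrine samples lay below both. Its log2 fold change was -0.04 ± 0.20 with all samples and -0.24 ± 0.076 without control 1 (adjusted p = 0.0238), and under the 17 other settings without control 1 the adjusted p ranged from 5.28e-06 to 0.485, with 11 calls. Leaving out control 3 or epinephrine sample 1 besides control 1 ended the call (adjusted p = 0.157 and 0.173). Whether the counting used strand is not given in the sources used here, so reads from the stretch shared with mt-Nd5 cannot be assigned to either gene.

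mt-Nd1, which lines the quinone channel, was the subunit that stayed higher in both fits, with log2 fold changes of 0.25 ± 0.18 and 0.07 ± 0.065. It was at 3417, 5137 and 5495 CPM in the controls and at 5061, 6381 and 5251 CPM after epinephrine, where sample 2 stood above the others. mt-Nd3 and mt-Nd4l are small hydrophobic subunits of the membrane arm. mt-Nd3 was at 413, 630 and 645 CPM in the controls and at 608, 665 and 537 CPM after epinephrine, and mt-Nd4l was at 184, 311 and 315 CPM in the controls and at 260, 329 and 254 CPM after epinephrine. Neither passed the test in either fit, though without control 1 mt-Nd4l did under both length offsets and with no filter on low counts. The log2 fold changes of mt-Nd3 and mt-Nd4l were 0.10 and 0.06 with all samples and -0.08 and -0.15 without control 1. The sequence of these 2 genes is almost wholly shared with nuclear pseudogenes, for 98.0% of 50-base windows in mt-Nd3 and 98.8% in mt-Nd4l, and for 62.2% in mt-Nd4, so their counts are uncertain.

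**Figure D5:**
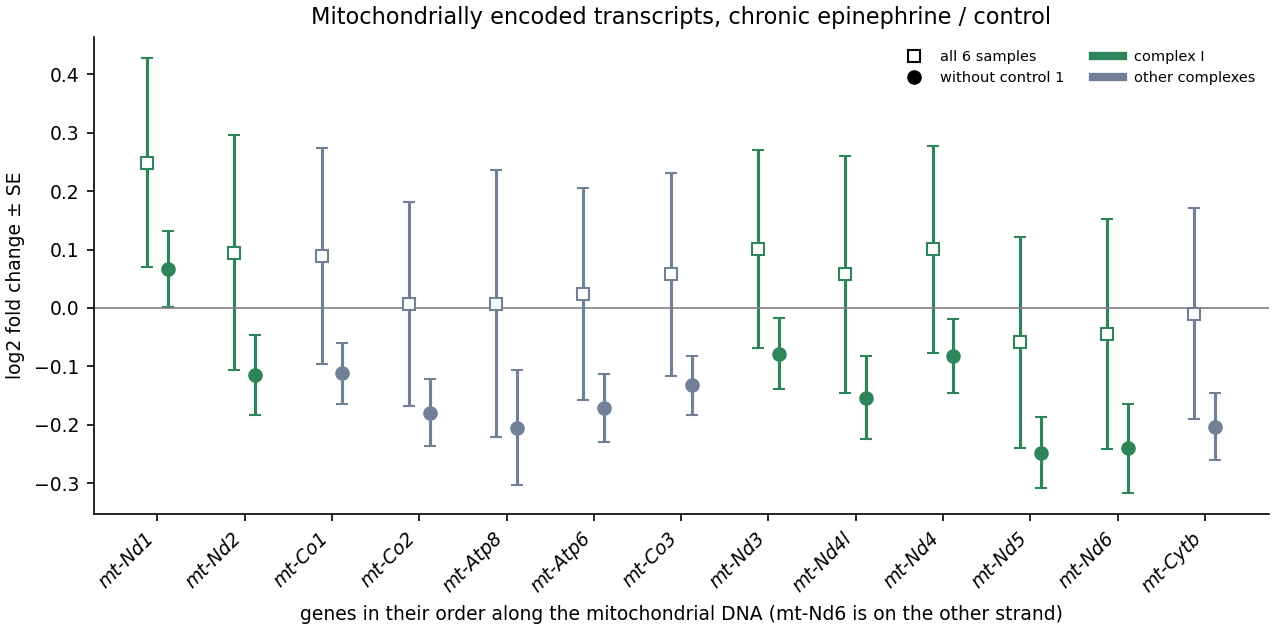
Log2 fold change ± SE (edgeR), chronic epinephrine over control, of the 13 mitochondrially encoded protein genes in their order along the mitochondrial DNA, from all 6 samples (open squares) and without control 1 (filled circles); complex I genes are green and genes of other complexes grey. Every gene is lower without control 1 than with all samples, and without it mt-Nd1 is the one gene above 0.

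The other mitochondrially encoded genes had values of the same kind. With all 6 samples 0 of the 6 (mt-Cytb, mt-Co1, mt-Co2, mt-Co3, mt-Atp6 and mt-Atp8) passed the test and their median log2 fold change was 0.02. Without control 1 all 6 were lower, with a median of -0.18, and mt-Cytb (-0.20, adjusted p = 0.0106), mt-Co2 (-0.18, adjusted p = 0.0232) and mt-Atp6 (-0.17, adjusted p = 0.0342) passed the test, a count to be read beside the 21.6% of all genes called in that fit. With all samples the log2 fold changes of these 3 were -0.01, 0.01 and 0.02. Whether complex I differed from these genes was not tested.

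Further genes that act with complex I were taken as lists. Of 15 assembly factors outside the Ndufaf names, 0 passed the test with all samples (2.63% of all genes did), with 9 higher and 6 lower and a median of 0.03. Without control 1, 6 were higher and 9 lower, with a median of -0.05, and 1 of 15 (6.67%) passed the test, against 21.6% of all genes. This gene, Nubpl, which delivers iron-sulfur clusters to complex I, had a log2 fold change of -0.38 there (adjusted p = 0.0393, against -0.24 and 0.567 with all samples), at 8.22, 12.3 and 11.2 CPM in the controls and 9.96, 9.75 and 7.21 CPM after epinephrine. Of the 3 genes linked to respiratory supercomplexes, Higd1a, a hypoxia-induced inner membrane protein, was at 22.7, 27.5 and 26.7 CPM in the controls and at 33.6, 32.7 and 37.3 CPM after epinephrine. Its groups did not overlap, and it passed the test without control 1 (0.34, adjusted p = 0.00243) but not with all samples (0.43, adjusted p = 0.0838). The other 2 of this list passed in neither fit, with log2 fold changes of 0.13 with all samples and -0.06 without control 1 for Cox7a2l, and of -0.05 and -0.07 for Higd2a.

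Of the other enzymes that pass electrons to ubiquinone, all 6 that were tested were lower after epinephrine in both fits, with a median log2 fold change of -0.19 with all samples and -0.23 without control 1. None passed the test with all samples, where 3 had an unadjusted p under 0.05 (17.1% of all genes did), and 4 of 6 passed without control 1 (21.6% of all genes did). Gpd2, the mitochondrial glycerol 3-phosphate dehydrogenase that brings glycolytic electrons to ubiquinone in beta cells, was at 377, 298 and 297 CPM in the controls and at 255, 249 and 237 CPM after epinephrine. It was highest in control 1, where complex I was lowest, and its groups did not overlap. Its log2 fold change was -0.39 ± 0.11 with all samples (adjusted p = 0.114) and -0.27 ± 0.050 without control 1 (adjusted p = 0.000237). Prodh, which oxidizes proline, had a log2 fold change of -0.87 ± 0.22 without control 1 (adjusted p = 0.00485). Its level was low, at 3.37, 4.34 and 5.32 CPM in the controls and at 2.55, 2.91 and 2.45 CPM after epinephrine. Sqor, which oxidizes sulfide, and Sdha, the flavoprotein of complex II, also passed the test without control 1 (-0.34, adjusted p = 0.0290, and -0.16, adjusted p = 0.0336). With all samples Prodh, Sqor and Sdha were at -0.72, -0.20 and -0.19 (adjusted p = 0.129, 0.592 and 0.276). The genes of this list had longer transcripts, with a median of 2277 nucleotides against 713 for the nuclear subunits of complex I. The difference between these genes and complex I, and the part of transcript length in it, was not tested.

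The nuclear subunits of complexes II to V gave values near those of complex I. Their median log2 fold change was 0.168 with all samples, against 0.173 for the nuclear subunits of complex I. Of 43 genes, 37 were higher (49.5% of all genes were) and 2 passed the test, both higher (2.63% of all genes passed). This list holds Cox6a2, which is also counted among the muscle markers. Without control 1 the median was 0.00, with 8 of 43 (18.6%) past the test, 5 higher and 3 lower, against 21.6% of all genes. Control 1 held the lowest value for 38 of these 43 genes, against 34.8% of all genes. Whether complexes II to V differed from complex I was not tested.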

How the data were processed

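MIN6 RNA-seq libraries (3 control, 3 chronic epinephrine) were analysed from the deposited table, in which the authors give expected counts (estimated reads per gene, 8.34% of them not whole) and FPKM values. The submitters' processing notes name GRCm38. The aligner, the counter and strandedness are not given in the sources used here, and 0 sample columns were left unused. Counts were rounded, filtered by filterByExpr, scaled by TMM and tested with edgeR 4.0.16 (quasi-likelihood test, R 4.3.3), with adjusted p under 0.05 as the threshold. Intervals are 95% confidence intervals of the fitted log2 fold change. CPM are TMM-scaled (summed marker levels are per total count, not TMM-scaled), and log2 CPM used a prior count of 2. FPKM were used for levels between genes and, as log2(FPKM + 1) and log2(FPKM + 0.1), in limma 3.58.1. DESeq2 1.42.0, other scalings and filters, a length offset, a replicate block and leaving out single samples were the alternatives. The fit of all 6 samples was tested on simulated data, and the outcome is not given here. GENCODE M21 gave positions, lengths and windows of 50 bases shared between transcripts, and promoter sequences are from RefSeq (GRCm38.p6). Fold changes without control 1 rest on 2 controls.

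The members, gene lists and the sample to leave out were chosen with earlier results of these data known. Named with values are members past the threshold in the fit of all 6 samples (none), the mitochondrially encoded and core subunits, the 3 highest and 3 lowest nuclear subunits and assembly factors, members past the threshold without control 1, the Ndufaf genes, Ndufa4 and Ndufa4l2, and genes of the further lists that passed, except that complexes II to V are given as counts, apart from genes that another list holds. The values of 1 member are not reported here, though counts and medians include it. Ndufs4, Ndufs5 and Ndufb2 were named outside this rule after their values were seen. Ndufc1, Cox7a2l and Higd2a are also given with values outside this rule.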

Additional observations from a re-analysis of the deposited data

How the results depend on the processing

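With all 6 samples, 0 members were called under each scaling, filter and tool tried and with the replicate block, and leaving out each sample gave 0 to 6, the 6 being without control 1. Scalings, filters and tools called from 259 of 12747 genes (limma, 0.1 added) to 729 of 17363 (DESeq2). Leaving out control 2 or 3 called 108 of 12876 and 192 of 12937 genes. Leaving out epinephrine sample 1, 2 or 3 called 47 of 12899, 47 of 12902 and 77 of 12977. With so few genes called, 0 members there says little about complex I. Without control 1 the count of 6 became 2 under DESeq2 and both limma fits of FPKM (Ndufa4 among them), 3 to 9 with a further sample out (3 without control 2, 9 without epinephrine sample 2, and 6 without control 3, where Ndufa10 and Ndufaf1 were called and Ndufc2 and mt-Nd6 were not), 7 with no filter and under both length offsets, where mt-Nd4l joined, and 6 with the replicate block, in which Ndufaf8 replaced mt-Nd6. The genes called of all also fell, from 2798 of 12966 to 1806 of 17178 under DESeq2, 1552 and 1599 of 12966 under limma and 1725 of 13213 without control 2. The numbers of the replicates did not pair the samples (correlations of deviations 0.0502, 0.0677 and -0.0488), and the replicate block called 178 genes of all against 335 with all samples, and 3140 against 2798 without control 1. Leaving out single samples moved the class medians between 0.02 and 0.32 for nuclear subunits, -0.10 and 0.13 for assembly factors, and -0.12 and 0.21 for mitochondrially encoded subunits, the low values without control 1. Among log2 fold changes from all samples, 15 of the members named by the rule changed sign with 1 sample out (over all 53 members, 18 did so without control 1), none of them past the test with all 6. Their ranges were -0.115 to 0.257 (mt-Nd2), -0.0781 to 0.210 (mt-Nd3), -0.0819 to 0.227 (mt-Nd4), -0.154 to 0.182 (mt-Nd4l), -0.248 to 0.0602 (mt-Nd5), -0.240 to 0.0929 (mt-Nd6), -0.0846 to 0.0974 (Ndufa9), -0.291 to 0.000514 (Ndufaf1), -0.112 to 0.136 (Ndufaf3), -0.0896 to 0.0899 (Ndufaf5), -0.259 to 0.127 (Ndufaf8), -0.190 to 0.0416 (Ndufs1), -0.0911 to 0.153 (Ndufs3), -0.0223 to 0.258 (Ndufs8) and -0.0441 to 0.0540 (Ndufv1). With the length offset from the annotation, and then from the deposited table (chosen after seeing the data), signs turned in mt-Nd2 (-0.0115 and -0.0153), mt-Nd3 (-0.140 and -0.161), mt-Nd4l (-0.191 and -0.213), Ndufa9 (-0.0712 and -0.0636), Ndufaf3 (-0.0412 and -0.0427), Ndufaf5 (-0.0944 and -0.0971), Ndufs3 (-0.0698 and -0.0733) and Ndufv1 (-0.0792 and -0.0833), and with the second alone in Ndufs8 (-0.0163). Scaling by library size turned Ndufa9 (-0.00175), Ndufaf5 (-0.00847) and Ndufv1 (-0.0181), limma on FPKM turned Ndufaf5 (-0.000184 with 1 added) and Ndufv1 (-0.0164 with 1 and -0.0168 with 0.1), and the replicate block turned Ndufaf8 (0.00756). The cause was not tested. Ndufa4l2, at 0 to 8 counts, was left untested. The SE without control 1 was 0.125, 0.130, 0.117 and 0.125 for the assembly factors Ndufaf1, Ndufaf2, Ndufaf5 and Ndufaf6. The median SE of the members in that fit was 0.0703. With all 6 samples the SE of these assembly factors was 0.161, 0.162, 0.132 and 0.151, against a median of 0.161. The part of depth in these values was not tested.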
